A study of Rattus norvegicus with 12 samples.

Results

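Genes named as solute carriers were followed across NRK cells with and without VAMP7 or ATG5, 38 of them out of the 20842 genes with a count. A gene entered when its symbol in the study's lists of genes changed in VAMP7KO or in ATG5KO began with Slc and a digit. The mitochondrial Slc25 family (6 genes), Slc27a6 and Slc4a10 were left out by the same rule. All 38 were found in the count table by their Ensembl identifier. The genes were therefore chosen by their difference between a knockout and WT, so that their levels, fold changes and counts of calls against WT or between the knockouts are given as a description. The counts stand beside the share of all genes called, and nothing is read from them. Tests are given for the difference between replicates, which the choice did not use directly. Among the 38, Slc9a3r2 matches the rule by its symbol but codes for a scaffold protein that holds sodium/proton exchangers at the membrane, not for a carrier.

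Solute carriers are membrane proteins that move ions, sugars, amino acids, nucleotide sugars, metals, vitamins and bile acids across the plasma membrane or the membranes of organelles, mostly by exchange, cotransport or facilitated diffusion. In the kidney tubule they recover filtered salt, glucose, amino acids and bile acids, and set the pH and volume of the cells. A symbol gives the family first and its member second, so that Slc12a1 and Slc12a7 both belong to the cation-chloride cotransporters.

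NRK is a line from normal rat kidney, labelled as epithelial, while the study's text speaks of both fibroblasts and epithelial cells. The 3 genotypes were WT, VAMP7KO, which lacks a vesicular SNARE of late endosomes and lysosomes, and ATG5KO, which lacks a protein needed to form autophagosomes. Both knockouts were made with a CRISPR/Cas9 plasmid and grown from single sorted cells, so that a difference from WT can also be one between clones, and the number of clones behind the 4 libraries of a knockout is not given. All cells were kept in growth medium with no treatment. RNA of each culture dish was made into 1 stranded mRNA library, with 4 numbered replicates of each genotype and 12 libraries in all, of 21090858 to 31525111 counts. Levels are given as CPM, counts scaled to library size with TMM factors. A count of 3, taken as the floor in a library, stood for 0.0952 to 0.142 CPM of the total counts, before TMM scaling. It covers counting error only, and whether a library was at the floor was judged on counts. CPM is not divided by gene length, so levels are compared between libraries and not between genes. Where values of 4 libraries are given, they stand in the order of replicates 1 to 4.

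Vamp7 checked the labels of the first knockout. It was counted at 109, 111, 116 and 109 CPM in WT, at 51.9, 49.4, 41.6 and 42.2 CPM in VAMP7KO and at 125, 129, 129 and 130.0 CPM in ATG5KO. Its transcript was 2.4-fold lower in VAMP7KO, with no overlap, and still present (log2 fold change -1.27, SE 0.08, adjusted p = 6.08e-06, edgeR). The identifier of Atg5 was not known from the symbols at hand, and it was not analysed here. Of the markers of cell types with a known identifier, Krt8, a keratin of simple epithelia, was at 777 ± 107 CPM in WT, 503 ± 55.6 CPM in VAMP7KO and 688 ± 105 CPM in ATG5KO (mean ± SD, n = 4). Col1a1, a collagen of fibroblasts, was at 859 ± 446, 1153 ± 386 and 2084 ± 591 CPM in the same order, so that WT held both transcripts. The other epithelial markers searched for, Cdh1 and Epcam among them, had no identifier at hand. An identifier was known only for genes that the study listed as changed in a knockout, so unchanged markers could not appear. That the markers below differed between the genotypes follows from this, and their levels are a description. Of 9 fibroblast markers 5 had an identifier (Col1a1, Col3a1, Dcn, Lum and Thy1). Their summed level was 523 to 1446 CPM in WT, 1039 to 3166 CPM in VAMP7KO and 2177 to 3952 CPM in ATG5KO. Single markers went different ways between the knockouts. Dcn was at 0.0662 ± 0.0929, 2.2 ± 0.422 and 0.806 ± 0.144 CPM in that order of genotypes, highest in VAMP7KO. Lum was too, at 3.74 ± 2.56, 168 ± 141 and 68.8 ± 59.7 CPM. Col3a1, at 116 ± 67.9, 761 ± 646 and 796 ± 266 CPM, overlapped between the knockouts. Thy1 alone stood at 143 ± 73.5 CPM in ATG5KO against 0.334 ± 0.384 CPM in WT and 0.113 ± 0.226 CPM in VAMP7KO. Myod1, a regulator of skeletal muscle, was at 18.9 ± 4.41 CPM in ATG5KO against 0.30 ± 0.060 CPM in WT and had no count in VAMP7KO. The 2 smooth muscle markers with an identifier went different ways. Desmin (Des) was at 2.79 ± 1.44 CPM in WT, 1.11 ± 0.301 CPM in VAMP7KO and 66.8 ± 4.45 CPM in ATG5KO, and Acta2 at 9.39 ± 3.79, 74 ± 32.6 and 8.74 ± 2.37 CPM. So did the 3 of the proximal tubule. Cubn was at 1.22 ± 0.165, 1.45 ± 0.34 and 4.63 ± 1.01 CPM and Lrp2 at 0.187 ± 0.0539, 0.171 ± 0.0725 and 0.857 ± 0.123 CPM, highest in ATG5KO, while Aqp1 was at 248 ± 107, 5.77 ± 5.03 and 19.7 ± 15.9 CPM, highest in WT. Cdh5 of endothelium was at 0.539 ± 0.0908 CPM in WT, 0.075 ± 0.023 CPM in VAMP7KO and 0.334 ± 0.21 CPM in ATG5KO, and the macrophage gene Csf1r at 1.42, 1.42, 0.0657 and 0.0713 CPM in WT, 0.0856 ± 0.0811 CPM in VAMP7KO and 2.71 ± 0.646 CPM in ATG5KO. The leukocyte gene Ptprc was at 12.5, 12.3, 2.76 and 3.21 CPM in WT and at or under the floor in every knockout library. Markers searched for in neurons and collecting duct had no identifier. The part of these differences in the values that follow was not tested. In RNA of whole cultures, fewer cells of a type and less RNA per cell cannot be told apart.

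Listing by the study fixed the directions of the 38 genes. The study listed 6 as lower in VAMP7KO and higher in ATG5KO, 1 as higher in VAMP7KO and lower in ATG5KO, 3 as lower in both and 5 as higher in both. A further 10 were listed for VAMP7KO alone (7 lower, 3 higher) and 13 for ATG5KO alone (12 higher, 1 lower). The list for ATG5KO could be read for 1427 of its 1961 lines, so that a gene described as listed for VAMP7KO alone may stand in the 534 lines that were not read. A carrier listed only in those lines is missing from the 38. The numbers of higher and lower genes in ATG5KO, and the medians of the fold changes, can depend on this. The filter on low counts kept 13141 genes for the fits and 32 of the 38. Slc6a2, Slc7a2, Slc16a6, Slc24a4, Slc46a1 and Slc51b did not pass it and have no fitted fold change.

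Between VAMP7KO and WT, 20 of the 32 genes were called at an adjusted p under 0.05 (quasi-likelihood F test of edgeR, adjusted over all genes by Benjamini-Hochberg), 7 of them higher and 13 lower. Of all genes tested 22.9% were called, 10.5% higher and 12.3% lower. Between ATG5KO and WT 28 were called, 21 higher and 7 lower, beside 46.3% of all genes (23.6% higher, 22.7% lower). Between the knockouts 24 were called, 3 of them higher in VAMP7KO and 21 lower, beside 44.9% of all genes (21.3% and 23.6%). The 3 comparisons share libraries, and these counts follow from how the genes were chosen. The fitted log2 fold changes of the 32 had a median of -0.53 in VAMP7KO against WT, of 1.90 in ATG5KO against WT and of -1.76 in VAMP7KO against ATG5KO. Over all genes tested these medians were 0.00, 0.01 and -0.01. Without the replicate number as a block, 13 genes were called between VAMP7KO and WT in place of 20, all of them among the 20. Those no longer called were Slc2a4, Slc7a7, Slc9a3r2, Slc16a4, Slc24a5, Slc26a7 and Slc45a4.

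Counted by the ranges of the libraries, with no fit, all 4 VAMP7KO libraries lay above all 4 of WT for 7 of the 38 genes and below them for 12, where 4.63% and 6.41% of all 20842 genes did so. For ATG5KO the counts were 21 above and 8 below, beside 10.5% and 9.44% of all genes. VAMP7KO lay above ATG5KO for 4 genes and below it for 21, beside 8.85% and 11%. At or under the floor in all 4 libraries of a genotype were 3 genes in WT, 6 in VAMP7KO and 4 in ATG5KO. Means over the 12 libraries ran from 0.167 to 31.7 CPM, and 20 of them had a mean of at least 1 CPM.

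**Figure D1:**
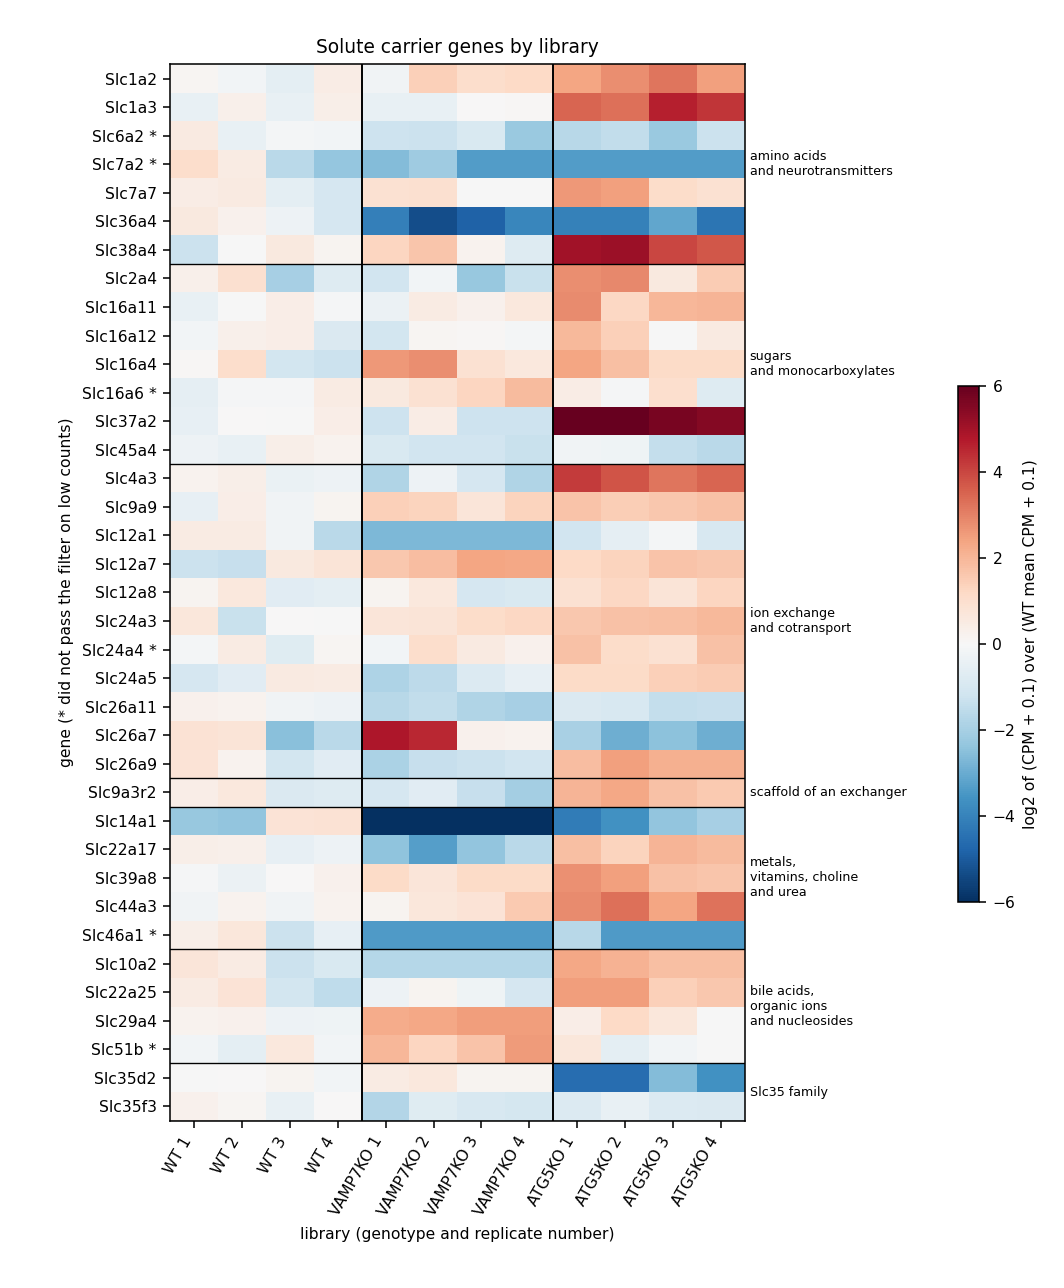
Level of 37 genes in each of the 12 libraries, as the log2 of the CPM plus 0.1 over the WT mean plus 0.1, with rows grouped by what the carriers move and columns by genotype and replicate number. Red cells are above the WT mean and blue cells below it, with the colours ending at 6 and -6. The 4 ATG5KO columns hold 21 genes above all WT libraries and the VAMP7KO columns 7, beside 10.5% and 4.63% of all 20842 genes. These counts follow from how the genes were chosen, by their difference between a knockout and WT.

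The 6 genes lower in VAMP7KO and higher in ATG5KO came from different families. Slc4a3 codes for a chloride/bicarbonate exchanger, Slc9a3r2 for the scaffold named above, Slc10a2 for the sodium-coupled bile acid carrier of ileum and proximal tubule, Slc22a17 for a receptor of the iron-carrying protein lipocalin-2, Slc24a5 for a sodium/calcium/potassium exchanger of intracellular membranes and Slc26a9 for an epithelial chloride transporter. The RefSeq promoter table (GRCr8, 250 bases before the start of the gene to 50 after it) held 28 of the 38 genes, with 35 promoters, and 4 of these 6. They are shown so that the start regions of genes of this shared pattern can be set side by side. Capitals mark a GC box (GGGCGG, here on the opposite strand) and a TATA box (TATAAA, read on both strands, where the overlapping matches form 1 run), and no other motif searched for was found in them.
Slc4a3, chr9:84485405-84485704, plus strand: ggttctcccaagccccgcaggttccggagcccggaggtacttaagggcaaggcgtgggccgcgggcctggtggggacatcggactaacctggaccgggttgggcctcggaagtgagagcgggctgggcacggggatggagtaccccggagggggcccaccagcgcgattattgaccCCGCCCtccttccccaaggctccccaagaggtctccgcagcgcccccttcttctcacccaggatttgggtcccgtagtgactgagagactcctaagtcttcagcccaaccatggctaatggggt
Slc26a9, chr13:45729833-45730132, plus strand: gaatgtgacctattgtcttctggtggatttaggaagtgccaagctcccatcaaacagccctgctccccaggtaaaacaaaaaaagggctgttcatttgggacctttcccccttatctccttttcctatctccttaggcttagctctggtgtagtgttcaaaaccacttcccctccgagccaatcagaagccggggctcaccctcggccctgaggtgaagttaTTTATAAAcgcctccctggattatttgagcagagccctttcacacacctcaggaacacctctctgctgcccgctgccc
Slc22a17, chr15:32358731-32359030, minus strand: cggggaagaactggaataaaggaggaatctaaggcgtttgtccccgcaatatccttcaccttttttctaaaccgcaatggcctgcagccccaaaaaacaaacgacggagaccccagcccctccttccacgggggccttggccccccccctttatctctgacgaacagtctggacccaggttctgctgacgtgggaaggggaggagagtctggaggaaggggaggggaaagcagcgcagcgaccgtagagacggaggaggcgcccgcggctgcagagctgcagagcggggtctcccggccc
Slc10a2, chr16:91087839-91088138, plus strand: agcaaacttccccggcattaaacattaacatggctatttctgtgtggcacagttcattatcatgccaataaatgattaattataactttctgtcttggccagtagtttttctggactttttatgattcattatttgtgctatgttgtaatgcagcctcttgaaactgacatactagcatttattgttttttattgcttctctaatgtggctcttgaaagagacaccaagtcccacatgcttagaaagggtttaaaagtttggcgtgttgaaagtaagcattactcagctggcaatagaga

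These 4 start regions differed in base composition. Their share of G and C was 65.3% for Slc4a3, 51.3% for Slc26a9, 61.3% for Slc22a17 and 36.3% for Slc10a2, where the median of all promoters of the table was 51.7%. A GC box stood in 15 of the 35 promoters and in 33.1% of all. A TATA box stood in 4 (Slc14a1, Slc16a12, Slc26a9 and Slc39a8) and in 14.2% of all. The E-box palindrome CACGTG was found in 4 promoters, of Slc12a7, Slc24a4 and Slc35f3, which has several, and in 6.42% of all. The AP-1 element TGACTCA was found in 1, of Slc51b, and in 4.63% of all, and the CARE sequence TGATGCAA, which stood in 0.795% of all promoters, in none. All motifs were read on both strands, and a match is a description of the letters only.

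Slc4a3 was barely counted in WT and VAMP7KO and well counted in ATG5KO. It stood at 0.304, 0.346, 0.164 and 0.178 CPM in WT, at 0, 0.181, 0.0722 and 0 CPM in VAMP7KO and at 6.36, 4.65, 3.12 and 3.78 CPM in ATG5KO. Every ATG5KO library lay above every other library, with a mean 18-fold that of WT and a fitted log2 fold change of 4.16 (SE 0.42). VAMP7KO overlapped WT, at a mean 3.92-fold lower and a log2 fold change of -2.0 (SE 0.69) that was not among those called. Between the knockouts the mean was 70.8-fold lower in VAMP7KO. That genotype held 6 reads of the gene, so the size of its folds is not well determined. The other chloride transporter, Slc26a9, stood at 0.777, 0.485, 0.131 and 0.214 CPM in WT, at 0.0334, 0.0905, 0.108 and 0.123 CPM in VAMP7KO and at 1.72, 2.7, 2.12 and 2.12 CPM in ATG5KO. None of the groups overlapped, and all 4 VAMP7KO libraries were at or under the floor. Its mean was 5.39-fold that of WT in ATG5KO, and at least 3.44-fold lower than WT in VAMP7KO. The lack of overlap between WT and VAMP7KO rests on 4 reads in WT replicate 3 against 3 in VAMP7KO replicate 4. Within replicates 1 and 2 the VAMP7KO log2 fold change was -3.35 (SE 0.69). Within replicates 3 and 4 it was -0.55 (SE 0.77), and the difference between these sets was not called.

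Slc10a2 had no count in any VAMP7KO library. In WT it was at 0.439, 0.346, 0.0329 and 0.0713 CPM, with all but 3 of its 26 reads in replicates 1 and 2, and in ATG5KO at 1.49, 1.28, 1.04 and 1.01 CPM. ATG5KO lay above all other libraries, at 5.42-fold the WT mean and at least 10.3-fold that of VAMP7KO. Against WT the VAMP7KO level was at least 1.9-fold lower. Slc51b, the beta subunit of the basolateral bile acid exporter, was the other bile acid gene of the list and had the opposite pattern in VAMP7KO, with 0.501, 0.271, 0.397 and 0.781 CPM against 0.0338, 0, 0.131 and 0.0357 CPM in WT. All 4 VAMP7KO libraries lay above WT, at 9.71-fold its mean, which rests on 6 reads, and ATG5KO was at the floor.

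Slc22a17 separated all 3 genotypes. It was at 1.72, 1.66, 0.92 and 1.07 CPM in WT, at 0.167, 0.0452, 0.181 and 0.37 CPM in VAMP7KO and at 4.88, 3.5, 5.89 and 5.3 CPM in ATG5KO. The VAMP7KO mean was 7.04-fold lower than that of WT (log2 fold change -2.81, SE 0.44) and the ATG5KO mean 3.64-fold that of WT (log2 fold change 1.85, SE 0.33). Lcn2, the gene of its ligand lipocalin-2, was at 2.3, 2.46, 3.45 and 3.35 CPM in WT, at 0.301, 0.362, 1.37 and 1.23 CPM in VAMP7KO and at 1.53, 1.01, 6.64 and 7.46 CPM in ATG5KO. All VAMP7KO libraries of the ligand lay below all WT libraries, as for the receptor, while its ATG5KO libraries lay on both sides of WT.

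Slc9a3r2 and Slc24a5 rest on more reads and kept the same order of genotypes in every replicate number. Slc9a3r2 was at 5.07, 5.96, 2.07 and 2.18 CPM in WT, at 1.84, 2.31, 1.41 and 0.864 CPM in VAMP7KO and at 16, 19.7, 13 and 11.7 CPM in ATG5KO. Slc24a5 was at 1.52, 1.94, 4.57 and 4.46 CPM in WT, at 0.802, 0.995, 1.73 and 2.22 CPM in VAMP7KO and at 7.11, 7.01, 8.48 and 9.08 CPM in ATG5KO. For both genes all ATG5KO libraries lay above WT, at 3.96-fold and 2.54-fold its mean. The VAMP7KO means were 2.38-fold and 2.17-fold lower than WT, but the ranges overlapped, and WT itself differed between replicates 1 and 2 and replicates 3 and 4. Within each replicate number VAMP7KO was the lower one in 4 of 4 pairs for both genes. As the replicates fell into 2 sets, such pairs are not 4 independent comparisons, here and below.

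Slc26a7 was the only gene listed as higher in VAMP7KO and lower in ATG5KO. It codes for an anion exchanger and chloride transporter of acid-secreting epithelia, the kidney collecting duct among them. Its level was 1.25, 1.18, 0.0329 and 0.143 CPM in WT, 21.6, 17.2, 0.794 and 0.781 CPM in VAMP7KO and 0.0929, 0, 0.0359 and 0 CPM in ATG5KO, where all 4 libraries were at the floor. The VAMP7KO mean was 15.5-fold that of WT and at least 82.5-fold that of ATG5KO. That mean, 10.1 ± 10.9 CPM (SD, n = 4), covers 2 levels within the genotype. Replicates 1 and 2 averaged 19.4 CPM and replicates 3 and 4 0.788 CPM, below both of the first WT replicates. WT fell into the same sets, at 1.21 and 0.0878 CPM, so that within each replicate number VAMP7KO was higher in 4 of 4 pairs while the ranges of the genotypes overlapped.

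**Figure D2:**
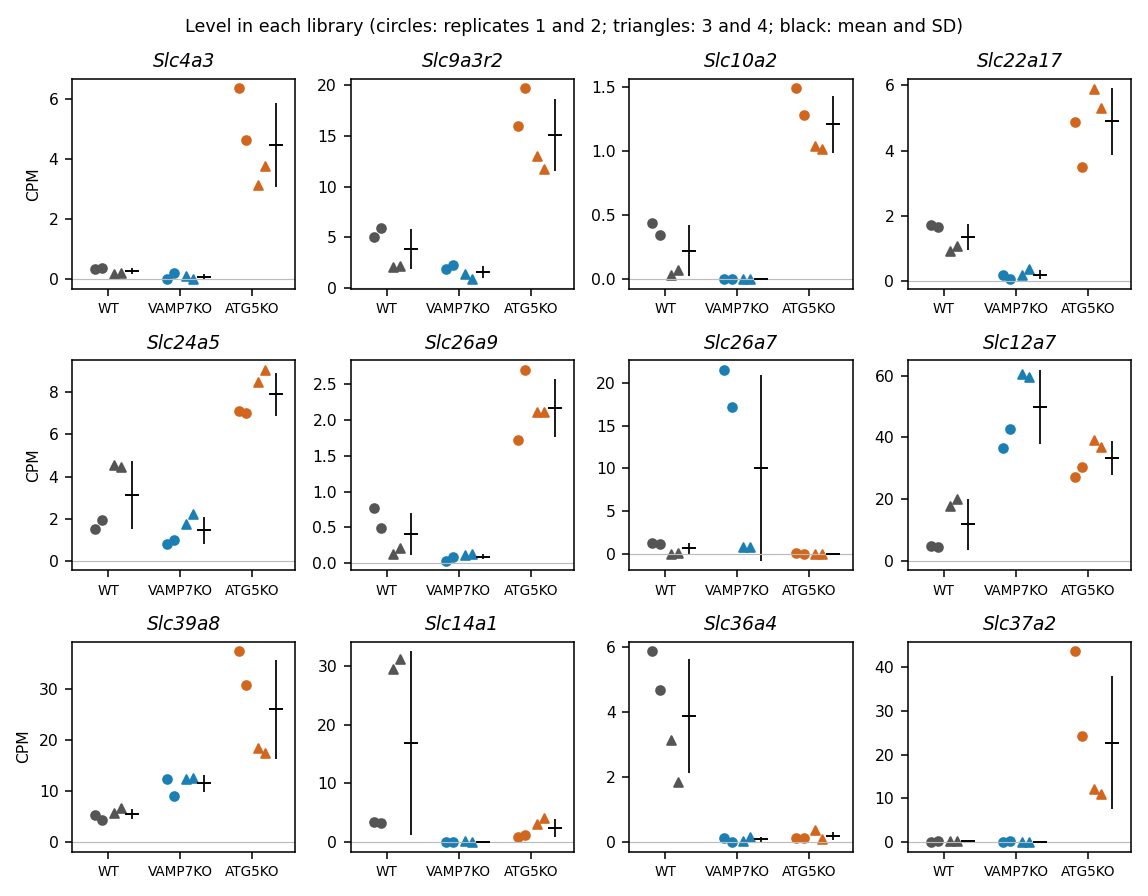
CPM of 12 named genes in every library, on linear axes that start near 0, with circles for replicates 1 and 2, triangles for replicates 3 and 4, and a black mark and bar for the mean and SD of the 4 libraries. The first 6 panels show genes lower in VAMP7KO and higher in ATG5KO, and Slc26a7 shows 2 VAMP7KO libraries at 21.6 and 17.2 CPM and 2 under 1 CPM.

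Higher in both knockouts, by the lists, were 5 carriers. Slc9a9, a sodium/proton exchanger of endosomes, was at 1.15, 2.18, 1.41 and 1.82 CPM in WT, at 4.54, 4.25, 2.82 and 4.32 CPM in VAMP7KO and at 5.57, 4.72, 5.24 and 5.85 CPM in ATG5KO. Its 3 genotypes did not overlap, with means 2.43-fold and 3.26-fold that of WT in VAMP7KO and ATG5KO. Slc12a7, a potassium/chloride cotransporter that serves volume regulation, was at 4.73, 4.43, 17.8 and 20.1 CPM in WT, at 36.7, 42.9, 60.5 and 59.7 CPM in VAMP7KO and at 27.3, 30.3, 39.3 and 36.8 CPM in ATG5KO. Both knockouts lay above WT, at 4.25-fold its mean in VAMP7KO and 2.84-fold in ATG5KO. Slc24a3, a sodium/calcium/potassium exchanger of the plasma membrane, was at 0.574, 0.0693, 0.329 and 0.321 CPM in WT, at 0.601, 0.633, 0.794 and 0.905 CPM in VAMP7KO and at 1.21, 1.32, 1.36 and 1.52 CPM in ATG5KO. The order WT, VAMP7KO, ATG5KO held without overlap, at 2.27-fold and 4.18-fold the WT mean. Between WT and VAMP7KO the gap was narrow, with 17 reads in WT replicate 1 and 18 in VAMP7KO replicate 1. The log2 fold change of 1.2 (SE 0.42) in VAMP7KO against WT was not among those called. Nor was that of -0.91 (SE 0.37) in VAMP7KO against ATG5KO.

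The remaining members of that group carry metals and monocarboxylates. Slc39a8, which imports zinc, manganese and other divalent metals, was at 5.3, 4.33, 5.65 and 6.67 CPM in WT, at 12.3, 9.05, 12.4 and 12.5 CPM in VAMP7KO and at 37.3, 30.8, 18.5 and 17.4 CPM in ATG5KO. The 3 genotypes did not overlap, and the mean was 2.1-fold that of WT in VAMP7KO and 4.74-fold in ATG5KO. Slc16a4, of the monocarboxylate family, was at 0.709, 1.52, 0.263 and 0.214 CPM in WT, at 4.54, 5.29, 1.37 and 1.11 CPM in VAMP7KO and at 3.95, 2.6, 1.62 and 1.61 CPM in ATG5KO. ATG5KO lay above WT, whereas the 2 lower VAMP7KO libraries fell below the highest WT library. In each replicate number both knockouts were nevertheless above WT, with fitted log2 fold changes of 2.19 (SE 0.34) in VAMP7KO and 2.07 (SE 0.35) in ATG5KO.

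Lower in both knockouts, by the lists, were 3 carriers, of amino acids and of folate. Slc36a4, an amino acid carrier, was at 5.88, 4.67, 3.15 and 1.85 CPM in WT, at 0.134, 0, 0.0361 and 0.165 CPM in VAMP7KO and at 0.139, 0.139, 0.359 and 0.0921 CPM in ATG5KO. Both knockouts lay far below WT, 46.6-fold in VAMP7KO (log2 fold change -5.39, SE 0.58) and 21.3-fold in ATG5KO (-4.29, SE 0.51), and overlapped each other. They held 9 and 19 reads of the gene, so the size of these folds is not well determined. Slc46a1, the proton-coupled folate carrier, was at 1.25, 1.59, 0.329 and 0.642 CPM in WT, had no count in VAMP7KO and was at 0.232, 0, 0 and 0 CPM in ATG5KO. The VAMP7KO level was at least 8.15-fold lower than WT, and a single ATG5KO library held all of the reads of that genotype. Slc7a2, a carrier of cationic amino acids, was at 1.99, 1.35, 0.23 and 0.107 CPM in WT and at 0.0668, 0.136, 0 and 0 CPM in VAMP7KO, with no count in ATG5KO. Its WT level came mostly from replicates 1 and 2, and the knockouts were at least 7.87-fold and 7.52-fold lower than the WT mean.

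**Figure D3:**
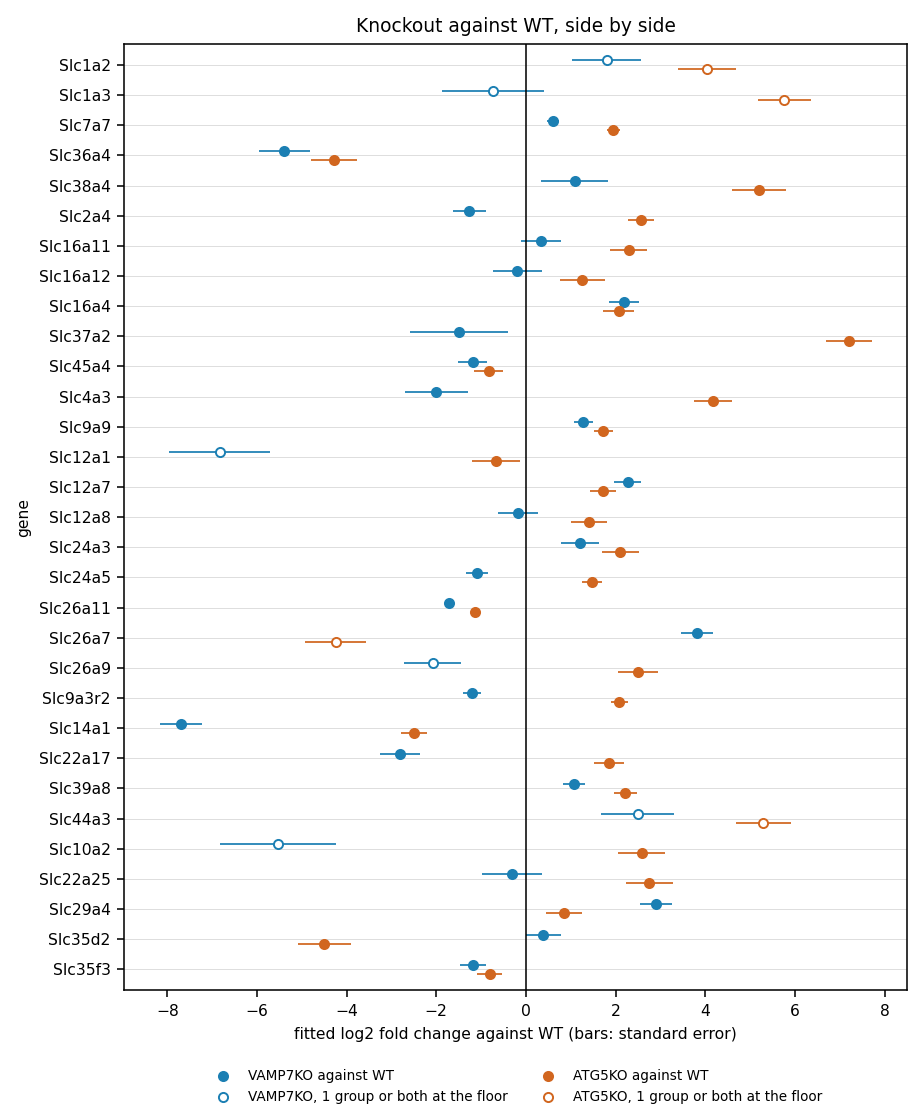
Fitted log2 fold change against WT for 31 genes that passed the filter on low counts, VAMP7KO in blue and ATG5KO in orange, with bars for the standard error and open circles where WT or the knockout was at or under 3 counts in all 4 libraries. The points of a gene lie on opposite sides of 0 for those listed in opposite directions, from Slc4a3 at -2.0 and 4.16 to Slc26a7 at 3.82 and -4.24.

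Among the carriers listed for VAMP7KO alone, Slc14a1 stood out. It codes for the urea channel of red cells and renal vasa recta, and was at 3.38, 3.19, 29.6 and 31.3 CPM in WT, at 0, 0.0452, 0.144 and 0.0823 CPM in VAMP7KO and at 0.836, 1.28, 3.16 and 4.1 CPM in ATG5KO. The VAMP7KO mean was 248-fold lower than that of WT (log2 fold change -7.7, SE 0.47), and the highest VAMP7KO library lay below the lowest WT library. This fold rests on 7 reads in VAMP7KO, with a mean under the floor, so its size is not well determined. In ATG5KO the mean was 7.19-fold lower (-2.49, SE 0.29), with overlap, and WT replicates 1 and 2 lay between ATG5KO replicates 3 and 4. Slc45a4, named as a proton-coupled sugar carrier, was at 16.7, 15, 26.2 and 23.7 CPM in WT, at 10.6, 9.18, 9.06 and 7.9 CPM in VAMP7KO and at 17.4, 16.9, 7.44 and 6.59 CPM in ATG5KO. VAMP7KO lay below WT in all 4 libraries, 2.22-fold by the mean, while ATG5KO was above WT in replicates 1 and 2 and below it in replicates 3 and 4.

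Slc26a11, Slc6a2, Slc35f3 and Slc12a1 were also listed as lower in VAMP7KO alone and were low in ATG5KO by their means, with 1 partial exception. Slc26a11, an anion carrier of lysosomal and plasma membranes, had means of 27.3 ± 5.2 CPM in WT, 8.23 ± 1.27 CPM in VAMP7KO and 12.4 ± 2.55 CPM in ATG5KO (SD, n = 4), with no overlap between any pair. Slc6a2, the noradrenaline carrier, had means of 0.367 ± 0.144, 0.0838 ± 0.0606 and 0.052 ± 0.0394 CPM in the same order, and both knockouts lay below WT. Slc35f3, a putative thiamine carrier, was at 1.62 ± 0.335, 0.721 ± 0.231 and 0.93 ± 0.145 CPM, also without overlap with WT. The exception was Slc12a1, the sodium/potassium/chloride cotransporter of the thick ascending limb and target of loop diuretics. Its 64 reads in WT (mean 0.544 ± 0.333 CPM) stood against none in VAMP7KO, a level at least 4.65-fold lower, and ATG5KO at 0.316 ± 0.142 CPM overlapped WT.

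Beside Slc51b, 2 carriers were listed as higher in VAMP7KO alone. Slc29a4, a carrier of organic cations and monoamines, had a mean of 0.188 ± 0.0593 CPM in WT, 1.42 ± 0.148 CPM in VAMP7KO and 0.344 ± 0.158 CPM in ATG5KO. VAMP7KO lay above both other genotypes, at 7.53-fold the WT mean. Slc16a6, of the monocarboxylate family, was at 0.147 ± 0.0757, 0.489 ± 0.243 and 0.203 ± 0.149 CPM, and rests on 1 to 20 reads per library.

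The 12 carriers listed as higher in ATG5KO alone were led by Slc37a2, an antiporter of glucose-phosphate and inorganic phosphate in the endoplasmic reticulum. It was at 0.0676, 0.139, 0.131 and 0.214 CPM in WT, at 0, 0.226, 0 and 0 CPM in VAMP7KO and at 43.7, 24.2, 12 and 10.9 CPM in ATG5KO. The ATG5KO mean was 165-fold that of WT, with a log2 fold change of 7.2 (SE 0.51), and the lowest ATG5KO library was 50.8 times the highest WT library. WT held 16 reads of the gene, so the size of these folds is not well determined. Slc38a4, a sodium-coupled carrier of neutral amino acids, was at 0, 0.139, 0.263 and 0.178 CPM in WT, at 0.501, 0.679, 0.181 and 0.0411 CPM in VAMP7KO and at 8.08, 8.46, 3.88 and 3.13 CPM in ATG5KO. Again no ATG5KO library overlapped WT, and the mean was 40.6-fold that of WT (log2 fold change 5.2, SE 0.60), where WT held 17 reads.

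Several of the others carry amino acids or sugars. Slc1a3 and Slc1a2, the glutamate carriers best known from astrocytes, were at the floor in WT and at 2.15 ± 0.986 and 0.925 ± 0.289 CPM in ATG5KO, at least 21-fold and 9.0-fold higher. In VAMP7KO Slc1a3 was at the floor too, and Slc1a2 was at 0.203 ± 0.121 CPM. Slc7a7, a light chain of the exchanger of cationic and neutral amino acids, was at 4.26 ± 2.12 CPM in WT, 6.23 ± 2.4 CPM in VAMP7KO and 16.9 ± 9.54 CPM in ATG5KO, where all libraries lay above WT. Slc2a4, the insulin-regulated glucose carrier, was at 0.559 ± 0.491, 0.225 ± 0.195 and 2.99 ± 1.93 CPM, higher in ATG5KO and lower in VAMP7KO than WT in 4 of 4 pairs, though it was listed for ATG5KO alone. The ATG5KO and WT ranges of Slc2a4 overlapped.

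The rest of the 12 were weakly counted. Slc16a11 and Slc16a12, of the monocarboxylate family, were at 2.5 ± 1.15 and 1.34 ± 0.826 CPM in ATG5KO against 0.494 ± 0.146 and 0.543 ± 0.23 CPM in WT, and only the first was without overlap. Slc44a3, a choline carrier-like protein, was at the floor in WT and at 0.834 ± 0.263 CPM in ATG5KO, at least 8.12-fold higher. Slc22a25, of the organic ion family, was at 0.188 ± 0.204 CPM in WT and 1.14 ± 0.472 CPM in ATG5KO. Slc12a8 and Slc24a4 were at 0.783 ± 0.153 and 0.50 ± 0.172 CPM in ATG5KO against 0.317 ± 0.184 and 0.121 ± 0.0734 CPM in WT, without overlap. For VAMP7KO the ranges of all of these last 6 genes overlapped WT.

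Slc35d2, a nucleotide sugar carrier of the Golgi, was the single gene listed as lower in ATG5KO alone in the lines that were read. It was at 2.23, 2.35, 2.56 and 2.0 CPM in WT, at 3.21, 3.57, 2.56 and 2.55 CPM in VAMP7KO and at 0, 0, 0.287 and 0.0921 CPM in ATG5KO. The ATG5KO mean, from 10 reads, was 24.1-fold lower than WT (log2 fold change -4.5, SE 0.58), and VAMP7KO was at 1.3-fold the WT mean with overlap.

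At the limits set by the study's lists, the smallest fitted log2 fold change of a gene listed for VAMP7KO was that of Slc39a8, at 1.07 (SE 0.25), followed by Slc24a5 at -1.09 (SE 0.24). Among the genes not listed for VAMP7KO, the furthest from 0 were Slc44a3 at 2.49 (SE 0.82), Slc1a2 at 1.8 (SE 0.77) and Slc37a2 at -1.49 (SE 1.1), all with larger standard errors. For ATG5KO the smallest of a listed gene was that of Slc16a12, at 1.26 (SE 0.51), followed by Slc12a8 at 1.4 (SE 0.40). Of those not found in the lines read, Slc14a1 was at -2.49 (SE 0.29). Carriers with no symbol in either list could not be compared, since the count table names genes by identifier.

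By the cargo of the carriers, the genes higher in ATG5KO were found in every group but the Slc35 family. Of all genes tested, 23.6% were called higher and 22.7% lower in ATG5KO, and 10.5% higher and 12.3% lower in VAMP7KO, and the counts below follow from how the genes were chosen. For amino acids and neurotransmitters, 4 of 6 fitted genes were called higher in ATG5KO and 2 lower, and 1 higher and 2 lower in VAMP7KO. Of the 10 fitted genes of ion exchange and cotransport, 7 were called higher and 2 lower in ATG5KO, and 3 higher and 4 lower in VAMP7KO. Carriers of sugars and monocarboxylates had 4 of 6 called higher and none lower in ATG5KO, against 1 higher and 2 lower in VAMP7KO. Among carriers of metals, vitamins, choline and urea, 3 of 4 were called higher and 1 lower in ATG5KO, and 1 higher and 2 lower in VAMP7KO.

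The replicates gave a comparison that the choice of the genes had not used directly. In all 3 genotypes the libraries of replicates 1 and 2 stood apart from those of replicates 3 and 4, a split known from earlier results of these data. The labels do not say what sets these replicates apart. Each set holds 2 libraries of a genotype, so p-values for the sets measure the spread within them and not that between further sets. Over the 3 genotypes, 13 of the 32 genes differed between the sets (edgeR's quasi-likelihood test, adjusted p under 0.05), 4 higher and 9 lower in replicates 3 and 4, where 70.9% of all genes differed (34.5% higher, 36.4% lower). Slc7a7 fell in every genotype, from a mean of 6.07 to 2.45 CPM in WT, from 8.31 to 4.15 CPM in VAMP7KO and from 25.2 to 8.72 CPM in ATG5KO. The log2 difference was -1.27 (SE 0.09) with an adjusted p of 3.53e-10 (edgeR). Slc16a4 fell by a log2 difference of -1.72 (SE 0.21, adjusted p = 1.15e-06, edgeR) and Slc26a7 by one of -3.07 (SE 0.77, adjusted p = 0.00169, edgeR). Slc24a5 rose, with 0.95 (SE 0.12, adjusted p = 2.06e-06, edgeR), as did Slc12a7 with 1.01 (SE 0.06, adjusted p = 8.12e-11, edgeR) and Slc14a1 with 2.42 (SE 0.41, adjusted p = 4.27e-05, edgeR).

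The knockout effect itself differed between the sets for some carriers, by the interaction of genotype and set. For VAMP7KO 3 of the 32 genes passed (edgeR, adjusted p under 0.05), all with a more negative log2 effect in replicates 3 and 4. Of all genes 16.5% passed (8.97% more positive, 7.5% more negative). A more negative effect can be a weaker rise or a stronger fall. For ATG5KO 12 passed, 6 with a more positive and 6 with a more negative effect in replicates 3 and 4, beside 28.9% of all genes (14.4% and 14.5%). This count was 6 without ATG5KO replicate 3 and 7 without WT replicate 3. The choice of the genes used all the replicates, so the counts for both knockouts can depend on it. Both interactions use the same WT libraries. Slc12a7 passed in both. In WT it averaged 4.58 CPM in replicates 1 and 2 and 18.9 CPM in replicates 3 and 4. Its log2 effect of VAMP7KO was 3.11 (SE 0.12) in the first set and 1.67 (SE 0.10) in the second, a difference of -1.45 (SE 0.16) with an adjusted p of 5e-06 (edgeR). For ATG5KO the effects were 2.65 (SE 0.12) and 1.01 (SE 0.10), with a difference of -1.64 (SE 0.16) and an adjusted p of 6.72e-07 (edgeR). The cotransporter was higher than WT in both knockouts and both sets.

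Slc45a4 had no ATG5KO effect beyond its error in the first set and a negative one in the second. The log2 values were 0.11 (SE 0.12) in replicates 1 and 2 and -1.82 (SE 0.13) in replicates 3 and 4, a difference of -1.94 (SE 0.17, adjusted p = 2.77e-07, edgeR). In WT the gene rose between the sets, from 15.8 to 24.9 CPM by the means, and in ATG5KO it went from 17.1 to 7.01 CPM. The VAMP7KO effect was negative in both, -0.67 (SE 0.12) and -1.55 (SE 0.12), with a difference of -0.88 (SE 0.17, adjusted p = 0.00168, edgeR). Slc39a8 had an ATG5KO effect of 2.82 (SE 0.16) in the first set and 1.54 (SE 0.15) in the second (difference -1.27, SE 0.22, adjusted p = 0.000324, edgeR), and Slc24a5 one of 2.03 (SE 0.20) and 0.96 (SE 0.17) (difference -1.07, SE 0.26, adjusted p = 0.00526, edgeR). Slc12a7, Slc45a4, Slc39a8 and Slc24a5 passed in each of the 12 fits that left out 1 library.

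The other 8 interactions with ATG5KO, and that of Slc38a4 with VAMP7KO, were lost in 1 or more of those 12 fits. Slc14a1 had an ATG5KO effect of -1.59 (SE 0.24) and then -3.08 (SE 0.17) (difference -1.49, SE 0.32, adjusted p = 0.00177, edgeR), and lost the call only without ATG5KO replicate 2. Slc9a3r2 went from 1.7 (SE 0.16) to 2.54 (SE 0.19) and lost it in 4 fits, and Slc22a17 from 1.29 (SE 0.27) to 2.49 (SE 0.28) and lost it in 7. Slc38a4 had a VAMP7KO effect of 3.0 (SE 0.71) in replicates 1 and 2 and -0.92 (SE 0.79) in replicates 3 and 4 (adjusted p = 0.0188, edgeR). It lost that call without WT replicate 1, WT replicate 3 or VAMP7KO replicate 4. Its ATG5KO effect was 6.82 (SE 0.47) and then 3.96 (SE 0.42), and that difference was lost without WT replicate 1 or 3. WT had 0, 4, 8 and 5 reads of this gene, and the difference ran from -2.97 to -7.89 for VAMP7KO and from -1.89 to -6.80 for ATG5KO when 1 library was left out, the outer values without WT replicates 1 and 2. For Slc10a2, Slc22a25, Slc26a9 and Slc35d2, which passed with adjusted p of 0.0417, 0.0486, 0.0425 and 0.0122 (edgeR), the call was lost in 8, 8, 6 and 2 fits. Of these 4 genes, Slc10a2 and Slc22a25 had 0 to 2 reads in each of WT replicates 3 and 4, and Slc35d2 had none in ATG5KO replicates 1 and 2, so the size of their difference is not well determined, as for Slc38a4. That of Slc22a25 ran from 2.24 to 5.22 when 1 library was left out.

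**Figure D4:**
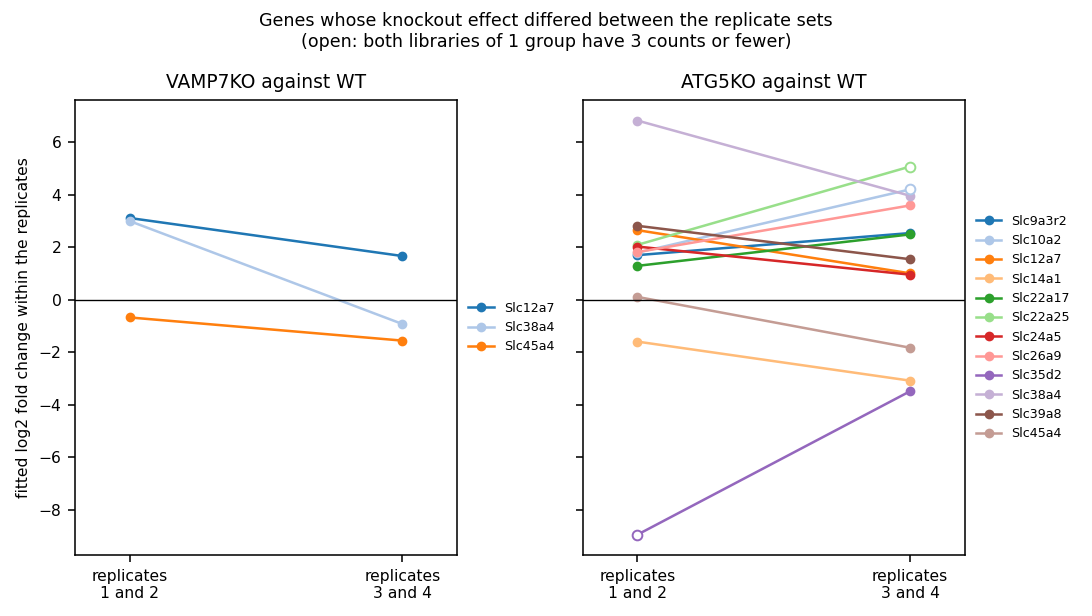
Fitted log2 fold change against WT within replicates 1 and 2 and within replicates 3 and 4, for the 3 genes whose VAMP7KO effect and the 12 whose ATG5KO effect differed between the sets, with lines joining the values of a gene. Open circles mark values where WT or the knockout had 3 counts or fewer in both libraries, and Slc45a4 in ATG5KO goes from 0.11 to -1.82.

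In direction, the contrasts were mostly the same in the sets. Of the 32 genes, 28 had a VAMP7KO effect of 1 sign in both sets and 30 an ATG5KO effect of 1 sign in both, which is fixed in part by how the genes were chosen.

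Other transport genes with a symbol in the study's lists were chosen as changed in the same way, and stand here as a description. Of 41 ABC transporters searched for, 10 had an identifier and all passed the filter, with 3 called higher and 4 lower in VAMP7KO and 4 higher and 4 lower in ATG5KO against WT, beside 22.9% and 46.3% of all genes tested called in either direction. Abca1, which exports cholesterol, was at 2.45 ± 0.941 CPM in VAMP7KO against 0.203 ± 0.0929 CPM in WT and 0.237 ± 0.0423 CPM in ATG5KO. Abcc9, the regulatory subunit of a potassium channel, was at 449.6, 398, 68.1 and 68.2 CPM in VAMP7KO against 28.1, 25.3, 5.09 and 5.21 CPM in WT, and at 0.125 ± 0.174 CPM in ATG5KO. It was higher in replicates 1 and 2 than in replicates 3 and 4 in both WT and VAMP7KO, as Slc26a7 was. Of 16 organic anion carriers of the Slco family, 5 had an identifier and 2 passed the filter. Slco2a1, the prostaglandin carrier, was at 19.3 ± 1.41 CPM in WT, 9.16 ± 3.04 CPM in VAMP7KO and 25 ± 0.534 CPM in ATG5KO. Slco1a4, the other one that passed, had the opposite order, at 0.405, 0.485, 0 and 0.0713 CPM in WT, 1.14, 1.67, 0.397 and 0.247 CPM in VAMP7KO and at or under the floor in ATG5KO.

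The sodium pump and the aquaporins set the gradients and the water flow beside these carriers. Of 15 pump genes, 3 had an identifier. Fxyd2, the gamma subunit of the renal pump, was at 9.17 ± 1.06 CPM in WT, at 0.0668, 0, 1.08 and 1.23 CPM in VAMP7KO and at 12.4 ± 2.97 CPM in ATG5KO. Atp1a4 was at 7.23, 7.96, 2.99 and 2.03 CPM in WT, 1.17 ± 0.374 CPM in VAMP7KO and 1.48 ± 0.469 CPM in ATG5KO, and Fxyd6 at 0.548 ± 0.158, 0.671 ± 0.162 and 2.81 ± 0.912 CPM, highest in ATG5KO. Aqp1, the water channel of proximal tubule and thin limb, was at 166, 146, 350.3 and 329 CPM in WT, at 1.97, 0.905, 9.86 and 10.4 CPM in VAMP7KO and at 6.78, 5.13, 34 and 32.9 CPM in ATG5KO. Both knockouts lay below WT, and in each genotype replicates 3 and 4 lay above replicates 1 and 2, the order also seen for Slc14a1 in WT and ATG5KO. Aqp8 was the other of 11 aquaporins with an identifier, at 11.8, 10.9, 0.92 and 1.18 CPM in WT, at 0.702, 1.45, 1.16 and 1.81 CPM in VAMP7KO and at 1.07, 0.312, 0.611 and 1.38 CPM in ATG5KO. WT replicates 1 and 2 lay above all other libraries, and WT replicates 3 and 4 lay within the range of the knockouts. None of 16 carbonic anhydrases had one, and of 19 partners and regulators of carriers only Lcn2, given above, did.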

How the data were processed

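RNA-seq covered 3 genotypes of NRK cells (WT, VAMP7KO, ATG5KO), each in 4 replicates. Tools named in the submitters' processing notes are cutadapt 4.2 for trimming, bowtie 2.2.8 against rRNA, STAR 2.7.10b for alignment (mRatBN7.2) and htseq-count 0.13.5 for counting (Ensembl release 110). The values in the table the authors deposited are these read counts, not normalized. A separator missing from its header was restored by position. Symbols came from Supplementary Data 1 and the 1427 lines of Supplementary Data 2 that were read, of which only identifier, symbol and direction were used. Their fold changes and p-values are the study's own and were not used. No table of Ensembl identifiers was at hand to name other genes.

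Genotypes were compared with the quasi-likelihood F test of edgeR 4.0.16 (R 4.3.3, limma 3.58.1) with TMM scaling, on the 13141 genes that passed filterByExpr. A single fit of the 12 libraries had the replicate number as its block, and p-values were adjusted by Benjamini-Hochberg. The difference of an effect between replicates 1 and 2 and replicates 3 and 4 was fitted as an interaction term of set and genotype, with no block. Standard errors were taken from the log2 fold change and its F statistic. The study's methods adjust for a batch that is not defined in the sources used here, and the block stands for it. The numbers were taken as pairing the libraries. Deviations from the genotype mean correlated at 0.562 to 0.681 between libraries of equal number. The values were as high, 0.529 to 0.677, between libraries of the same set and unequal number, and -0.682 to -0.543 across the sets. They follow the sets and cannot show a pairing by number, so pairs of equal number are not independent comparisons. No pair of libraries agreed within sampling noise. The replicates are culture dishes of a genotype, and the number of clones behind those of a knockout is not given. The p-values measure the spread between these dishes. In the tests of the sets, each set held 2 libraries of a genotype. Those p-values measure the spread within a set and not how a difference between sets would vary over further sets.

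Where no library of a group had over 3 counts, the fold was computed against 3 counts per library and is a lower bound. Such bounds cover counting error only. A group with any library above 3 counts got a plain fold, which is poorly determined where its mean is near or under the floor. The depth was 21090858 to 31525111 counts per library. Values in every library are given for members listed in both tables, for the 3 highest and 3 lowest fold changes of each comparison and for members whose effect differed between the sets, both of the latter at 1 CPM or more on average. One of the 38 genes is counted in the totals, and its values are not reported here. The members and the gene lists were chosen with earlier results of these data known. The alternatives were DESeq2's size factors, the DESeq2 Wald test (DESeq2 1.42.0), all genes with a count, no replicate block, the set as block, each set alone, and each library left out in turn. The fits were tested on simulated data. Tables and figures were made with Python 3.11.15, pandas 2.3.3, numpy 2.4.6 and matplotlib 3.10.9.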

Additional observations from a re-analysis of the deposited data

Results flagged for a closer look

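In 15 pairs of gene and knockout, the effect differed between the first set (replicates 1 and 2) and the second (3 and 4). The test was the interaction of genotype and set (edgeR, adjusted p under 0.05). For VAMP7KO this was 3 of the 32 genes, beside 16.5% of all genes, and for ATG5KO 12, beside 28.9%. The log2 difference, second set minus first, was -1.45 for Slc12a7, -3.92 for Slc38a4 and -0.88 for Slc45a4 in VAMP7KO. In ATG5KO it was 0.84 for Slc9a3r2, 2.41 for Slc10a2, -1.64 for Slc12a7, -1.49 for Slc14a1, 1.2 for Slc22a17 and 2.98 for Slc22a25. It was -1.07 for Slc24a5, 1.78 for Slc26a9, 5.46 for Slc35d2, -2.86 for Slc38a4, -1.27 for Slc39a8 and -1.94 for Slc45a4 in the same knockout. Only Slc12a7, Slc24a5, Slc39a8 and Slc45a4 kept their calls in each of the 12 fits that left out 1 library. In ATG5KO the calls of Slc10a2, Slc22a25, Slc22a17 and Slc26a9 were lost in 8, 8, 7 and 6 of them. Slc35d2 had no reads in ATG5KO replicates 1 and 2, so the size of its difference is not well determined. The value of Slc38a4 ran from -2.97 to -7.89 in VAMP7KO and from -1.89 to -6.80 in ATG5KO when 1 library was left out. Its size is not well determined either. What sets the replicates apart was not tested.

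One library stood apart from the other 3 of its genotype, by its gap over the range, in 4 of 60 groups of 4 libraries. The limit flags about 1 in 20 groups drawn from 1 normal distribution. As the replicates fell into 2 sets, that rate need not hold here, and nothing is read from the count. Slc9a9 was at 2.82 CPM in VAMP7KO replicate 3, below the others, and Slc39a8 at 9.05 CPM in VAMP7KO replicate 2, also below. Slc35f3 was at 1.14 CPM in ATG5KO replicate 2 and Slc37a2 at 0.226 CPM in VAMP7KO replicate 2, both above the others. For Slc37a2 this was 5 reads where the other VAMP7KO libraries had none, a case that is always flagged.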

How the results depend on the processing

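With the replicate number as a block, 20 genes were called between VAMP7KO and WT, and 13 with no replicate block. Without the block, 24 in place of 28 genes were called for ATG5KO against WT and 21 in place of 24 between the knockouts. Leaving out each library in turn gave 16 to 23 genes for VAMP7KO against WT, 27 to 31 for ATG5KO against WT and 23 to 25 between the knockouts. It gave 2 to 3 genes for the difference of the VAMP7KO effect between the sets, 6 to 12 for that of the ATG5KO effect and 12 to 15 for the difference between the sets over the 3 genotypes. The lowest counts of the ATG5KO effect, 6 and 7, came without ATG5KO replicate 3 and without WT replicate 3, and the DESeq2 Wald test gave 9. Under DESeq2's size factors, all genes with a count, the set as block, each set alone or only the 2 genotypes compared, no count moved by over 1.5 times. Calls lost in 2 to 10 of the 12 fits without 1 library were those of Slc2a4, Slc10a2, Slc26a9, Slc35f3 and Slc45a4 for VAMP7KO against WT, of Slc12a8 and Slc35f3 for ATG5KO against WT and of Slc16a12 between the knockouts. No fold change of a called gene turned its direction. Of 1904 values of single genes, 46 moved by 2 or more standard errors of the main fit, most of them in a fit of 1 set alone. Where that error is large, a sizeable shift can stay under this limit. Genes of under 1 CPM rest on few reads, and a difference there may be missed at this depth.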
